A study of Mus musculus with 33 samples.

Results

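The genes described here are 9 genes of hormone-receptor-positive luminal cells, the mammary epithelial cells that sense estrogen and progesterone: Esr1, Pgr, Foxa1, Gata3, Greb1, Cited1, Prom1, Ly6a and Tnfsf11. They were taken by name from the deposited count table, in which all 9 are present among 55487 genes. All 9 passed the filter of at least 10 reads summed over the libraries, which left 36527 genes to test. RNAseq was available for 33 libraries of GFP+ mammary cells, labelled as biological replicates within each group. Tumors came from mice with the MMTV-PyMT transgene, the polyoma middle T oncogene under a mammary tumor virus promoter, and glands came from tumor-free mice without it. PTHrP WT mice were Pthrp wt/wt and PTHrP KO mice were Pthrp flox/flox. All of them carried MMTV-Cre, which is active in mammary epithelium, and the mTmG reporter, in which Cre switches red fluorescence to GFP, on an FVB background. In the KO mice Cre also cuts out a floxed stretch of Pthlh, which codes for PTHrP. There were 10 WT tumors (3 each at weeks 6, 8 and 10 and 1 at week 12), 9 KO tumors (3 each at weeks 8, 10 and 12), 8 WT glands (2 each at weeks 6, 8, 10 and 12) and 6 KO glands (2 each at weeks 8, 10 and 12). Cells were sorted after a short culture in serum-containing medium, which all groups share.

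Estrogen binds the estrogen receptor alpha, encoded by Esr1, which acts as a transcription factor on DNA that the pioneer factor FOXA1 helps to open. A main target is Pgr, the progesterone receptor. In the mammary gland these receptors sit in a subset of luminal cells, and those cells act on their neighbours through secreted factors, amphiregulin (Areg) under estrogen and RANKL (Tnfsf11) and WNT4 under progesterone. GATA3 is a transcription factor of the luminal lineage as a whole. CITED1 is a coactivator of the estrogen receptor, GREB1 is a receptor cofactor and an estrogen target, and PROM1 (CD133) and LY6A (SCA1) are surface proteins used to sort hormone-sensing luminal cells.

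Counted reads per library ran from 28419983 to 130981596 with a median of 46351179. The share of reads on rRNA genes was at most 0.447% in every WT library and above that in 10 of 15 KO libraries, where it reached 18.8%, and its part in differences between WT and KO was not tested beyond the fits named beside them. Levels of Pthlh, which is deleted only in part in KO mice, were 1.35 to 2.29 counts scaled to library size (CPM) in KO tumors, 1.46 to 6.67 in WT tumors, 2.79 to 8.52 in KO glands and 2.93 to 7.73 in WT glands. The WT and KO ranges overlapped within tumors and within glands, while all KO tumors lay below all glands. A count over the whole gene does not separate the deleted part, so it does not check the genotype labels. The general luminal markers Krt8 and Krt18 were present in every library, so each held RNA of luminal epithelial cells. Their presence does not give the share of such cells. Fibroblast markers were present as well, with a summed level of 445 to 4360 CPM in glands and 83.8 to 1100 CPM in tumors, and most of it was Postn, at a median of 2041 CPM in WT glands, where no other gene of the list had a median above 9.80 CPM.

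All CPM values are raw counts divided by the library size after TMM scaling, and a gene was called when its fold change was over 1.5 with a Benjamini-Hochberg adjusted p under 0.1 in edgeR's quasi-likelihood test over all genes. Compared per kilobase of exon, the highest level in WT glands was that of Ly6a (median 54.4 CPM per kilobase), followed by Prom1 (22.6), Gata3 (15.5), Foxa1 (7.99), Pgr (3.67), Esr1 (0.882), Cited1 (0.456), Greb1 (0.134) and Tnfsf11 (0.0673). The ranges over the 8 glands overlapped for every pair of neighbours in this order. In WT tumors Prom1 (26.4) and Gata3 (17.3) stood at much the same level, whereas Foxa1 (0.45), Esr1 (0.343) and Pgr (0.135) were all under 1. The gap between Gata3 and Foxa1 was thus wide in tumors and narrow in glands.

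**Figure D1:**
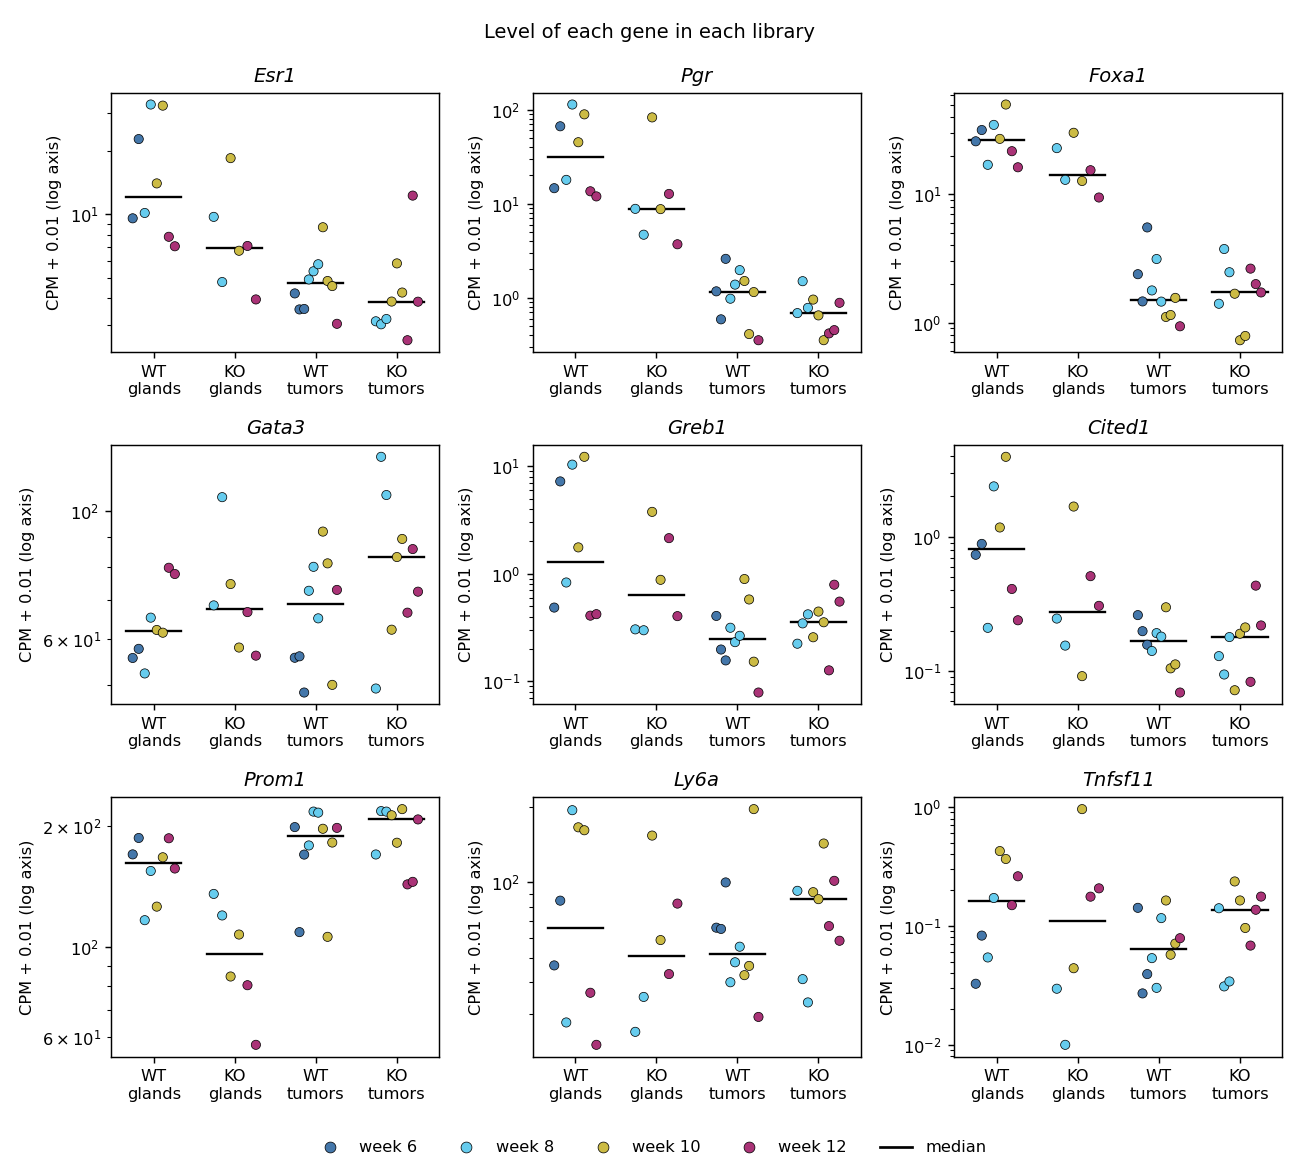
Level of each of the 9 genes in each of the 33 libraries, as CPM + 0.01 on a log axis, for WT and KO glands and tumors. Each point is 1 library, colors give the week and black lines are medians; Pgr and Foxa1 are lower in all 19 tumors than in all 14 glands.

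To ask how tumor formation relates to the hormone-receptor program in mice with intact PTHrP, WT tumors of weeks 6, 8 and 10 were compared with WT glands of the same weeks. The receptor Pgr fell the most of the 9 genes, followed on the log2 scale by Greb1, Foxa1, Cited1 and Esr1. Gata3, Prom1, Ly6a and Tnfsf11 were not called. Thus 5 of the 9 genes were called lower and 0 higher, where 9.53% of all genes tested were lower and 6.21% were higher. The median log2 fold change was -2.02 over the 9 genes and 0.03 over all genes. In these sorted bulk samples, fewer cells of a type and less RNA per cell cannot be told apart.

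Among the receptors, Pgr (ENSMUSG00000031870, GRCm38 chr9:8899833-8968611, plus strand) stood at 14.6 and 66.4 CPM in the WT glands of week 6, at 17.9 and 113 at week 8, at 44.9 and 88.9 at week 10, and at 13.5 and 11.9 at week 12. In KO glands it was 8.80 and 4.67 at week 8, 82.5 and 8.74 at week 10, and 12.7 and 3.69 at week 12. WT tumors ranged from 0.344 to 2.58 with a median of 1.15, and KO tumors from 0.344 to 1.49 with a median of 0.678. No tumor reached the lowest gland in either genotype. The fall was 44.4-fold in WT (log2 fold change -5.47, SE 0.50, edgeR adjusted p = 1.14e-08) and 19.0-fold in KO tumors of weeks 8, 10 and 12 (-4.25, SE 0.49, edgeR adjusted p = 8.84e-07). The log2 value of Pgr was -4.85 in WT without WT gland week 8 replicate 2 and -3.45 in KO without KO gland week 10 replicate 1, and in these comparisons over weeks Pgr was called in every fit that left out a library.

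Esr1 (ENSMUSG00000019768, GRCm38 chr10:4611593-5005614, plus strand) had a smaller range. WT glands held 9.55 and 22.7 CPM at week 6, 10.1 and 33 at week 8, 14.0 and 32.6 at week 10, and 7.81 and 7.04 at week 12. KO glands held 9.70 and 4.76 at week 8, 18.4 and 6.70 at week 10, and 7.06 and 3.94 at week 12. WT tumors ran from 3.02 to 8.66 (median 4.69) and KO tumors from 2.52 to 12.2 (median 3.84). In WT mice 9 of 10 tumors lay below all 8 glands, and in KO mice 6 of 9 tumors lay below all 6 glands. Esr1 fell by 2.02 on the log2 scale in WT tumors (SE 0.31, edgeR adjusted p = 2.35e-05). In KO tumors the log2 fold change was -0.84 (SE 0.31, edgeR adjusted p = 0.0808), and this call was lost when any of 10 of the 15 libraries was left out, with an adjusted p of 0.39 without KO gland week 10 replicate 1. It was also lost at a fold change over 2 and in an edgeR fit of the compared groups alone (adjusted p = 0.108). By week Esr1 in KO tumors was -1.24 at week 8, -1.43 at week 10 and 0.16 at week 12 (edgeR adjusted p = 0.381, 0.158 and 0.98).

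FOXA1 is the pioneer factor that lets the estrogen receptor reach its sites. Foxa1 (ENSMUSG00000035451, GRCm38 chr12:57540628-57546916, minus strand) also fell in tumors of both genotypes. WT glands held 26 and 31.8 CPM at week 6, 17.0 and 34.9 at week 8, 27.2 and 50.4 at week 10, and 21.8 and 16.3 at week 12, and KO glands held between 9.46 and 30.3 with a median of 14.2. WT tumors ran from 0.924 to 5.52 (median 1.5) and KO tumors from 0.717 to 3.74 (median 1.71). All 19 tumors lay below all 14 glands. Foxa1 fell 15.3-fold in WT tumors (log2 fold change -3.93, SE 0.30, edgeR adjusted p = 1.01e-09) and 9.49-fold in KO tumors (-3.25, SE 0.29, edgeR adjusted p = 3.84e-08).

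GATA3 specifies the luminal lineage and is not limited to hormone-sensing cells. Gata3 (ENSMUSG00000015619, GRCm38 chr2:9857078-9890034, minus strand) ran from 52.3 to 79.6 CPM in WT glands (median 61.8), from 56.1 to 106 in KO glands (median 67.6), from 48.4 to 92.0 in WT tumors (median 68.9) and from 49.2 to 124 in KO tumors (median 83.1). These ranges overlapped throughout. The log2 fold change was 0.16 in WT (SE 0.15, edgeR adjusted p = 0.557) and 0.21 in KO tumors (SE 0.15, edgeR adjusted p = 0.505).

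The receptor cofactors Greb1 and Cited1 had low counts in tumors. Greb1 (ENSMUSG00000036523, GRCm38 chr12:16670615-16800886, minus strand) held 0.475 and 7.20 CPM in WT glands of week 6, 0.820 in replicate 1 of week 8, 1.75 and 12.2 at week 10, and 0.398 and 0.411 at week 12. Replicate 2 of week 8 held the most reads, 510, and the lowest WT gland held 18. In KO glands it ran from 0.289 to 3.75 CPM. WT tumors held 0.0688 to 0.883 CPM (5 to 46 reads) and KO tumors 0.117 to 0.781 (8 to 39 reads). In WT mice 8 of 10 tumors lay below all 8 glands, but in KO mice only 3 of 9 tumors lay below all 6 glands. Greb1 fell by 4.0 on the log2 scale in WT tumors (SE 0.58, edgeR adjusted p = 1.09e-05), and its log2 fold change was -2.99 without WT gland week 6 replicate 2. In KO tumors its log2 fold change was -1.37 (SE 0.61, edgeR adjusted p = 0.162), where DESeq2 gave an adjusted p of 0.0638. It was -0.78 without KO gland week 12 replicate 1 and -0.90 without KO gland week 10 replicate 1.

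Cited1 (ENSMUSG00000051159, GRCm38 chrX:102247381-102252181, minus strand) held 0.724 and 0.875 CPM in WT glands of week 6, 0.199 and 2.37 at week 8, 1.16 and 3.94 at week 10, and 0.398 and 0.229 at week 12, with 9 to 155 reads. KO glands ran from 0.0814 to 1.67 CPM (3 to 49 reads), WT tumors from 0.0590 to 0.288 (4 to 19 reads) and KO tumors from 0.0618 to 0.422 (3 to 20 reads). The KO ranges thus overlapped almost wholly, with 2 of 9 tumors below all 6 glands. Cited1 fell by 2.97 on the log2 scale in WT tumors (SE 0.49, edgeR adjusted p = 6.10e-05), and its log2 fold change was -2.08 without WT gland week 8 replicate 2. In KO tumors the log2 fold change was -1.36 (SE 0.55, edgeR adjusted p = 0.109), where DESeq2 gave an adjusted p of 0.0512. It was -0.24 without KO gland week 10 replicate 1, and it was called without KO gland week 10 replicate 2 (-1.68) or KO tumor week 12 replicate 2 (-1.59).

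Promoter sequence is shown, from 1 start each, for Pgr, Greb1 and Cited1, estrogen targets or cofactors that fell in WT tumors and whose RefSeq start coincides with the 5′ end of the annotated gene. Each stretch is the 250 bases before the start (RefSeq, GRCm38.p6), written 5′ to 3′ on the strand of the gene, and capitals mark GGTCA on either strand, a single arm of the estrogen response element.
Pgr, chr9:8899583-8899832, plus strand: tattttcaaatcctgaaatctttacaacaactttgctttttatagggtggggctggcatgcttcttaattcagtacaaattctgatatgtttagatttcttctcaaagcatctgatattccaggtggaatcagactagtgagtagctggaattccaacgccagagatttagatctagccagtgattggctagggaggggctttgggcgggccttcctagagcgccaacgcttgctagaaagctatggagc
Greb1, chr12:16800887-16801136, minus strand: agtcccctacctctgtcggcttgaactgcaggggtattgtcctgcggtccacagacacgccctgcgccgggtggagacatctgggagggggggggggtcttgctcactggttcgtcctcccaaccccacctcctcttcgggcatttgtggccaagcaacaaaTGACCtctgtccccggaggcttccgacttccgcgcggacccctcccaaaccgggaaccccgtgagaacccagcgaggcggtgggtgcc
Cited1, chrX:102252182-102252431, minus strand: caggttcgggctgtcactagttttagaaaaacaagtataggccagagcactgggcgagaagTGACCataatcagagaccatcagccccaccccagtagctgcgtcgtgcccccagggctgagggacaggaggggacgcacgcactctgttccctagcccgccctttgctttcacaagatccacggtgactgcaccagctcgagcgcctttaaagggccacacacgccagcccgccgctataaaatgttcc
The full element (GGTCA and its inverted copy with 3 bases between them), the forkhead motif TGTTTAC and the GATA motif AGATAA were searched on both strands as well and have no match in these 3 stretches. A single arm starts 88 bases before the start of Greb1 and 189 bases before that of Cited1. GGTCA is part of the full element and lies in 35.2% of 32851 promoter stretches of this length, against 0.0639% for the full element, 3.17% for the forkhead motif and 9.99% for the GATA motif. These matches are descriptions of the letters and not sites of binding.

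Prom1, Ly6a and Tnfsf11 followed other patterns. Prom1 (ENSMUSG00000029086, GRCm38 chr5:43993620-44102032, minus strand) held 117 to 187 CPM in WT glands (median 162) and 106 to 217 in WT tumors (median 189), which overlapped. KO glands held 136 and 120 CPM at week 8, 84.6 and 108 at week 10, and 80.5 and 57.2 at week 12, and KO tumors held 143 to 220 (median 208). All 9 KO tumors lay above all 6 KO glands. Prom1 rose 2.01-fold in KO tumors (log2 fold change 1.00, SE 0.14, edgeR adjusted p = 1.51e-05), and it was also called with the rRNA share as a covariate (0.97). In WT tumors the log2 fold change was 0.19 (SE 0.14, edgeR adjusted p = 0.414).

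Ly6a (ENSMUSG00000075602, GRCm38 chr15:74994877-74998031, minus strand) is induced by interferon in many cells and belongs to a family of close copies, so reads that fit several of them are uncertain. It held 46.7 and 84.5 CPM in WT glands of week 6, 27.6 and 194 at week 8, 166 and 161 at week 10, and 36.3 and 22.5 at week 12. KO glands ran from 25.4 to 154 CPM, WT tumors from 29.1 to 196 (median 51.7) and KO tumors from 33.2 to 143 (median 85.7). The groups overlapped fully, and libraries of 1 week differed by several-fold. The log2 fold change was -0.59 in WT tumors (SE 0.35, edgeR adjusted p = 0.282) and 0.39 in KO tumors (SE 0.36, edgeR adjusted p = 0.64). Single libraries moved the WT value of Ly6a. It was 0.08 without WT gland week 8 replicate 2, and it was called lower without WT tumor week 10 replicate 3 (-0.95, adjusted p = 0.0347) and without WT gland week 8 replicate 1 (-0.86, adjusted p = 0.0679).

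RANKL, the product of Tnfsf11, carries the progesterone signal from receptor-positive cells to their neighbours. Tnfsf11 (ENSMUSG00000022015, GRCm38 chr14:78277445-78308043, minus strand) was near the floor of detection, with 1 to 54 reads in WT glands, 0 to 35 in KO glands, 1 to 10 in WT tumors and 1 to 12 in KO tumors. Its level ran from 0.0226 to 0.416 CPM in WT glands and from 0.0171 to 0.154 in WT tumors. KO gland week 10 replicate 2 was the highest of all with 0.950 CPM, and KO gland week 8 replicate 2 had 0 reads, which allows up to 3. The log2 fold change in WT tumors was -0.87 (SE 0.60, edgeR adjusted p = 0.363), and in KO tumors it was -0.05 with an adjusted p of 1.0. At week 10 WT glands held 0.355 to 0.416 CPM and WT tumors 0.0473 to 0.154, which did not overlap, with a log2 fold change of -2.10 that was not called (SE 0.88, edgeR adjusted p = 0.225).

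**Figure D2:**
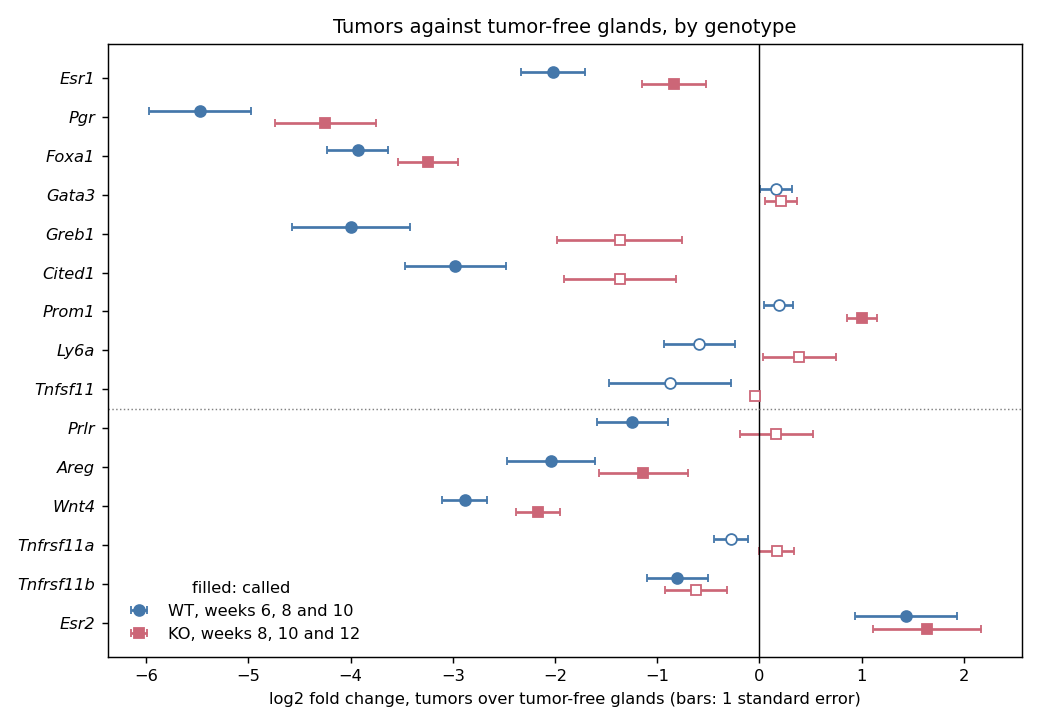
Log2 fold change of tumors over tumor-free glands with bars of 1 standard error, for the 9 genes and 6 genes of the same pathway, in WT (weeks 6, 8 and 10) and KO mice (weeks 8, 10 and 12). Filled symbols were called; the bar of Tnfsf11 in KO is not drawn because its estimate is near 0. Pgr and Foxa1 lie far left in both genotypes, and Prom1 is filled to the right in KO.

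In KO mice 3 of the 9 genes, Pgr, Foxa1 and Esr1, were called lower in tumors and 1, Prom1, higher, where 5.44% of all genes were lower and 5.16% higher. The median log2 fold change was -0.84 over the 9 genes and 0.09 over all genes. The WT and KO comparisons cover different weeks, and the difference in the tumor effect between genotypes was tested over weeks 8 and 10, which both have. None of the 9 genes was called in that test by edgeR or DESeq2, where 0.00548% of all genes were called by edgeR. An unadjusted p under 0.05 in edgeR was reached by 3 of the 9 genes and by 2038 of 36527 genes. The 3 were Greb1 (log2 difference -2.72, SE 1.04, edgeR adjusted p = 0.83), Ly6a (-1.45, SE 0.62, adjusted p = 0.862) and Prom1 (-0.51, SE 0.24, adjusted p = 0.888). Without WT gland week 8 replicate 2 the differences of Greb1 and Ly6a were -1.34 and -0.44. The smaller fold changes of Greb1, Cited1 and Esr1 in KO mice are thus not shown to differ from those in WT mice.

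Taken by week, Pgr and Foxa1 were called lower in tumors in all 6 comparisons of 3 tumors with 2 glands. At week 6 in WT mice 4 of the 9 genes were lower (Pgr, Greb1, Foxa1 and Esr1), where 3.53% of all genes were lower and 2.32% higher. At week 8 in WT mice 5 were lower, with Cited1 added (5.84% of all genes lower, 3.35% higher), and at week 10 in WT mice 5 were lower again (3.67% lower, 2.46% higher). The fold changes of Foxa1 were -3.24, -3.62 and -4.94 on the log2 scale at weeks 6, 8 and 10, and those of Pgr were -4.86, -5.53 and -6.03. Leaving out 1 library moved Foxa1 between -3.91 and -2.89 at week 6, between -4.05 and -3.01 at week 8 and between -5.32 and -4.43 at week 10. It moved Pgr between -5.57 and -3.39 at week 6, between -6.32 and -3.66 at week 8 and between -6.44 and -5.45 at week 10. The ranges of Pgr overlapped. Those of Foxa1 overlapped between weeks 6 and 8, while its range of week 10 lay apart from both. Whether the tumor effect differed between weeks was not tested. The value of Pgr nearest to 0 came in each week without replicate 2 of the WT glands. Calls of Esr1, Greb1 and Cited1 in single weeks were lost when some single libraries were left out. Without WT gland week 6 replicate 2, WT gland week 8 replicate 2 or WT gland week 10 replicate 2, the comparison of that week kept 2 called genes, Pgr and Foxa1, and the log2 fold changes of Esr1 were then -1.34, -0.92 and -1.21 and those of Greb1 -0.90, -1.63 and -1.71. Cited1, which had -3.01 at week 8 and -3.93 at week 10, was then -0.33 and -2.81. Without certain tumors calls were lost with little change in size. Without WT tumor week 6 replicate 2, Esr1 was -2.05 and Greb1 -3.73 at week 6. Without WT tumor week 10 replicate 3, Esr1 was -1.78 and Greb1 -3.25 at week 10. Without WT tumor week 8 replicate 1, Cited1 was -2.85 at week 8.

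In KO mice 2 of the 9 genes were lower at week 8 (Foxa1 -2.84 and Pgr -2.81 on the log2 scale), where 1.38% of all genes were lower and 1.11% higher. At week 10 Pgr (-6.11) and Foxa1 (-4.33) were lower and Prom1 (1.09) was higher, against 3.09% of all genes lower and 2.57% higher. At week 12 the same 3 genes were called, Pgr (-3.82), Foxa1 (-2.57) and Prom1 (1.26), against 2.92% lower and 3.19% higher. Without KO gland week 8 replicate 1 none of the 9 genes was called at week 8, with Foxa1 at -2.37 and Pgr at -2.26. Without KO gland week 10 replicate 1 Prom1 lost its call at week 10, at 0.93, and without KO gland week 12 replicate 1 Pgr lost its call at week 12, at -2.65. In a fit of the week 12 libraries alone 0 of all genes tested were called, and the log2 fold changes there were -3.86 for Pgr, -2.59 for Foxa1 and 1.24 for Prom1. The call of Pgr at week 8 had an edgeR adjusted p of 0.084 and was lost without any of the 5 libraries and in the fit with the rRNA share as a covariate (-2.69, adjusted p = 0.105). At week 10 DESeq2 called 6 genes, adding Esr1 (log2 fold change -1.44), Greb1 (-2.77) and Cited1 (-2.59). Without KO gland week 10 replicate 1 the log2 fold change of Cited1 at week 10 was 0.80, that of Esr1 was -0.53 and that of Pgr, which was still called, was -3.73.

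Among the 14 glands the levels of several of these genes followed a shared order. The 4 glands with the highest Pgr were WT gland week 6 replicate 2, WT gland week 8 replicate 2, WT gland week 10 replicate 2 and KO gland week 10 replicate 1. The same 4 glands held the 4 highest values of Esr1, Foxa1, Greb1 and of the prolactin receptor gene Prlr, and 3 of them were among the 4 highest in Cited1, Ly6a and Areg. Gata3 and Tnfsf11 each had 1 of these glands among their 4 highest, and Prom1 and Wnt4 each had 2. In Greb1 these glands held 3.75 to 12.2 CPM, and the other glands held 0.289 to 2.13. The summed level of basal markers in the 4 glands was 6390, 7410, 3450 and 5940 CPM in the order given, and in the other 10 glands it ran from 3790 to 14300 CPM. Their interferon-stimulated genes summed to 233, 412, 354 and 148 CPM, whereas 8 of the other 10 glands held 37.8 to 78.5 CPM and the remaining ones, WT gland week 10 replicate 1 and KO gland week 10 replicate 2, held 1030 and 338 CPM. The high-Pgr glands were thus among the 6 highest in these genes as well. Their rRNA share was 0.00498%, 0.0105%, 0.0274% and 8.04%. The part of these measures in the gland pattern was not tested.

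**Figure D3:**
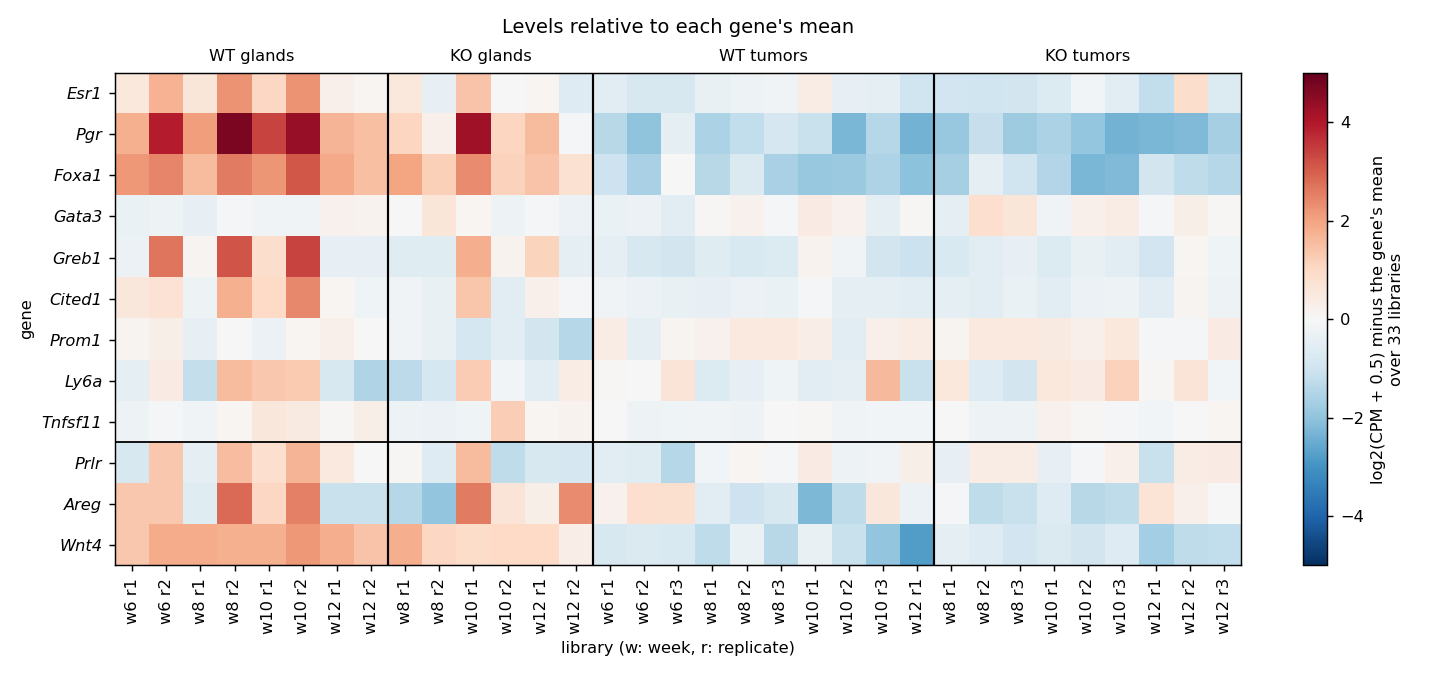
Log2(CPM + 0.5) of each gene minus its mean over the 33 libraries, with libraries in columns ordered by group, week (w) and replicate (r), and Prlr, Areg and Wnt4 below the line. WT glands w6 r2, w8 r2 and w10 r2 and KO gland w10 r1 are the darkest columns for Pgr, Foxa1, Esr1 and Greb1, while Gata3 stays pale throughout.

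Between WT and KO tumors of weeks 8 and 10, none of the 9 genes was called by edgeR or DESeq2, where edgeR called 0.512% of all genes. An unadjusted p under 0.05 in edgeR was reached by 0 of the 9 genes and by 3996 of 36527 genes. Between WT and KO glands of weeks 8, 10 and 12, only Prom1 was called, where 0.906% of all genes were. A positive log2 fold change, that is, a higher estimate in WT glands, was found for 8 of the 9 genes. The median log2 fold change was 0.83 over the 9 genes and 0.14 over all genes. Esr1, Pgr, Foxa1 and Greb1 shared their 4 highest glands, so their values are not separate observations. An unadjusted p under 0.05 was reached by 6 of the 9 genes and by 4514 of 36527 genes. Prom1 was higher in WT glands by 0.67 on the log2 scale (SE 0.15, edgeR adjusted p = 0.0422). This call was lost in 6 of 12 fits that left out a library and with the rRNA share as a covariate, where the log2 fold change was 0.58 with an adjusted p of 0.315. Pgr had a log2 fold change of 1.48 (SE 0.49, edgeR adjusted p = 0.183) and Esr1 of 0.96 (SE 0.35, edgeR adjusted p = 0.233), and DESeq2 called both, with adjusted p-values of 0.0874 and 0.0904. Cited1 (1.29, edgeR adjusted p = 0.339), Greb1 (1.38, edgeR adjusted p = 0.383) and Foxa1 (0.66, edgeR adjusted p = 0.383) were called by neither tool. Without KO gland week 10 replicate 1, edgeR called Pgr (2.27) and Cited1 (2.41) instead of Prom1, and without WT gland week 8 replicate 2 these values were 0.86 and 0.39, with Esr1 at 0.60 and Greb1 at 0.46, and none was called. The rRNA share was 0.00296% to 0.261% in WT glands and 0.0224% to 18.8% in KO glands, so genotype and this property of the libraries are in part joined.

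With age, none of the 9 genes was called in WT tumors of week 10 against week 6 (0.011% of all genes called, and 1 of the 9 genes and 3122 of all genes with an unadjusted p under 0.05) or in KO tumors of week 12 against week 8 (0.0% called, and 0 of the 9 genes and 2878 of all genes with an unadjusted p under 0.05), by edgeR or DESeq2. The gene with the unadjusted p under 0.05 in WT tumors was Foxa1, with a log2 fold change of -1.28 (SE 0.47, edgeR adjusted p = 0.504), which was -0.61 without WT tumor week 6 replicate 3 and was called without the filter on low counts (adjusted p = 0.0737). In WT glands of week 12 against week 6 edgeR called none (0.35% of all genes called, and 1 of the 9 genes and 2994 of all genes with an unadjusted p under 0.05), and DESeq2 called Greb1, with a log2 fold change of -3.26. In edgeR that value of Greb1 was -3.24 (SE 1.15, adjusted p = 0.372), and it was -0.23 when WT gland week 6 replicate 2 was left out. In KO glands of week 12 against week 8 edgeR called none (0.567% of all genes called, and 2 of the 9 genes and 3387 of all genes with an unadjusted p under 0.05), and DESeq2 called Prom1 (-0.88). Each of these gland comparisons sets 2 glands against 2.

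Other genes of the pathway moved in several directions. The counts of each list stand against 9.53% lower and 6.21% higher of all genes in WT tumors and 5.44% and 5.16% in KO tumors. Over weeks 8 and 10, edgeR called no gene of any list for a difference in tumor effect between WT and KO, where it called 0.00548% of all genes. A call in 1 genotype only, here and in the lists below, is thus not shown to be a difference between genotypes. Of 18 estrogen and progesterone target genes 16 could be tested, since Tff1 and Tff3 had 4 and 1 reads in all. In WT tumors 8 were lower and 4 higher (median log2 fold change -0.47), and in KO tumors 7 were lower and 4 higher (median -0.26). Wnt4, the progesterone target that acts on basal cells, fell by 2.89 in WT (SE 0.22, edgeR adjusted p = 1.09e-09) and by 2.17 in KO (SE 0.22, edgeR adjusted p = 1.61e-07) on the log2 scale. The estrogen target Areg, an EGF receptor ligand, had log2 fold changes of -2.04 (SE 0.43, edgeR adjusted p = 0.0011) and -1.14 (SE 0.44, edgeR adjusted p = 0.0899). Myb (-3.36 and -2.26 in WT and KO), Calca (-2.72 and -3.01) and Cxcl12 (-2.25 and -2.61) were called lower in both genotypes, while Bcl2, Ctsd, Xbp1 and Igfbp4 were called higher in both.

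Of 18 receptors and cofactors, 4 were lower and 2 higher in WT tumors (median 0.10) and 1 was lower and 2 higher in KO tumors (median 0.20), where 1 of 18 is near the share over all genes. The second estrogen receptor gene, Esr2, was higher, by 1.43 in WT (SE 0.50, edgeR adjusted p = 0.0449) and 1.64 in KO (SE 0.53, edgeR adjusted p = 0.0361), from low levels of 0.00672 to 0.0475 CPM per kilobase in WT glands. Spdef, a luminal transcription factor, was lower in both genotypes (-2.25 and -1.19).

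On the receiving side of RANKL, the receptor gene Tnfrsf11a (RANK) was not called, with log2 fold changes of -0.28 in WT (SE 0.17, edgeR adjusted p = 0.283) and 0.17 in KO tumors (SE 0.17, edgeR adjusted p = 0.688). The decoy receptor gene Tnfrsf11b was lower in WT tumors (-0.80, SE 0.30, edgeR adjusted p = 0.0651) and not called in KO tumors (-0.62, SE 0.30, edgeR adjusted p = 0.217). Prlr was lower in WT tumors (-1.24, SE 0.35, edgeR adjusted p = 0.0119) and not called in KO tumors (0.17, SE 0.36, edgeR adjusted p = 1.0). Elf5, a transcription factor of alveolar cells, was higher in both (3.01 and 2.21). Over the 7 genes of this list, 1 was higher and 2 lower in WT, and 1 was higher and 0 lower in KO.

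Markers of other cell types moved in the same comparisons. Of 10 basal or myoepithelial markers all 10 were lower in tumors of both genotypes (median log2 fold change -2.95 in WT and -2.66 in KO), with a summed level of 3450 to 14300 CPM in glands and 584 to 3310 in tumors. Of 10 hormone-receptor-negative luminal or alveolar markers 9 were higher and 1, Aldh1a3, lower in both genotypes (median 3.23 and 2.83). The milk protein gene Csn3 stood at 10.7 to 19.2 CPM in WT glands and at 196 to 1097 in WT tumors. Of 10 general luminal markers 1 was higher and 1 lower in WT tumors, and 3 were higher and 1 lower in KO tumors, with Krt19 lower (-2.18 and -1.41) and Ehf higher (1.36 and 1.09) in both, and the WT counts are near the share over all genes. Of 12 hormone-sensing luminal markers, a list that holds 6 of the 9 genes, 9 were lower and 0 higher in WT tumors (median -2.51), and 7 were lower and 1 higher in KO tumors (median -1.25). Tbx3 (-4.73 and -3.91) and Tph1 (-4.59 and -3.99) were lower beside Pgr and Foxa1. The part of these cell types in the fall of Esr1, Pgr and Foxa1 was not tested.

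Markers of cells outside the epithelium were counted as well. Of 10 fibroblast markers 6 were lower in WT tumors and 2 in KO tumors, Postn and Thy1 in both. Of 10 endothelial markers 6 were lower in WT and 1 in KO tumors, with a summed level of 2.87 to 39.6 CPM over all libraries. Of 10 macrophage and lymphocyte markers 4 were lower and 1 higher in WT tumors, and 1 was lower and 1 higher in KO tumors. The T cell genes Cd3e and Cd3d had 0 reads in 14 of 33 libraries each. Of 10 adipocyte markers 3 were lower and 1 higher in WT tumors, 1 was higher in KO tumors, and Adipoq had 0 reads in 16 libraries. Of the 10 interferon-stimulated genes 5 were lower in WT tumors and 0 were called in KO tumors. Their summed level spread widely among WT glands, from 41.8 to 1030 CPM. These sums were 412, 1030, 354 and 148 CPM in the 4 glands highest in Ly6a. They were, in order, WT gland week 8 replicate 2, WT gland week 10 replicates 1 and 2, and KO gland week 10 replicate 1. Their Ly6a was 194, 166, 161 and 154 CPM. The lowest Ly6a of WT glands, 22.5 CPM in week 12 replicate 2, came with a sum of 41.8 CPM. That of KO glands, 25.4 CPM in week 8 replicate 1, came with 40.6 CPM. The 2 orders were not the same, since KO gland week 10 replicate 2 had a sum of 338 with 58.9 CPM of Ly6a. Whether Ly6a follows these genes was not tested. Of the 8 Ly6 family neighbours of Ly6a, 3 (Ly6d, Ly6c2 and Ly6c1) were lower in WT tumors, and in KO tumors Ly6d was lower and Ly6e higher.

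**Figure D4:**
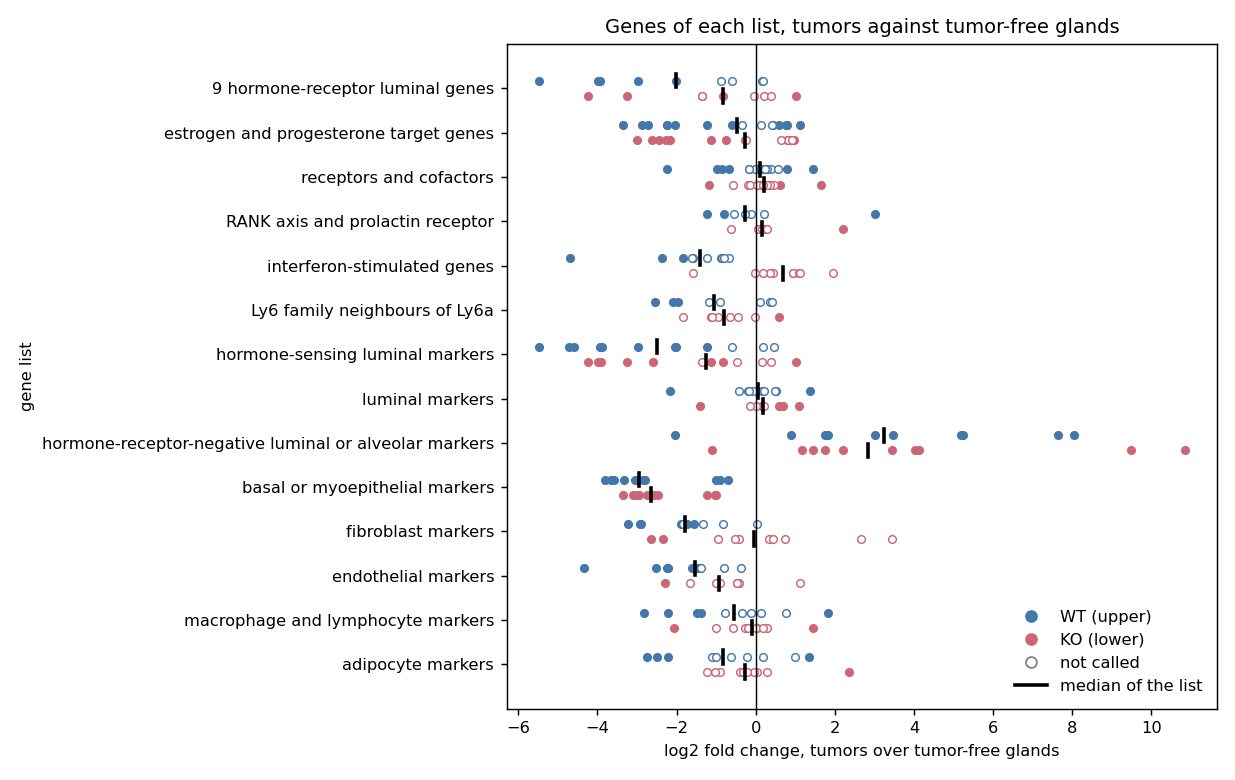
Log2 fold change of tumors over tumor-free glands for every tested gene of each list, WT above and KO below in each row, with filled points for called genes and black bars for list medians. The 9 genes spread from -5.47 to 1.00, basal markers lie left of 0 and alveolar markers, apart from Aldh1a3, lie right of 0.

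Across the 33 libraries, the genes with the pattern most like Pgr, by Pearson's r of log2(CPM + 0.5) over genes with a mean CPM of at least 1, were Kcns3 (0.988), Amer2 (0.985), Ttc6 (0.977), Trpc6 (0.972) and Man1a (0.971). Within the 14 glands alone these r were 0.894 to 0.975, and within the 19 tumors 0.649 to 0.857. For Esr1 they were Wnt5a (0.921), Ly6d (0.91), Tenm4 (0.905), Fam210b (0.897) and Rasgrf1 (0.887), with r of 0.917 to 0.948 within glands and 0.308 to 0.691 within tumors. The libraries share the difference between glands and tumors, so these values describe likeness of pattern only. Gata3, Greb1 and Prom1 share 155, 736 and 424 exon bases with genes on the opposite strand, which held at most 3, 3 and 60 reads in any library.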

How the data were processed

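RNAseq of GFP+ mammary cells was analysed from the raw counts per gene that the authors deposited. They had depleted rRNA, aligned stranded paired-end reads with HISAT to GRCm38, removed duplicates with Picard (1.128) and counted with HTSeq. Whether counting used strand is not given in the sources used here. Removal of duplicates can lower counts of abundant genes. A deposited table of normalized values was not used. Rows of spike-in, reporter and transgene sequences (111 rows, 0.0778% of reads) were left out. Groups came from the sample labels. Replicates are labelled as biological, and counts of 25 replicate pairs all differed beyond sampling noise (chi-square per degree of freedom of at least 37.39).

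Counts were fitted with edgeR 4.0.16 (estimateDisp, glmQLFit, glmQLFTest; TMM, 1 coefficient per group, 33 libraries). Genes needed 10 reads summed over libraries, which 36527 had. Calls needed a 1.5-fold difference and an adjusted p (Benjamini-Hochberg, all genes) under 0.1. Each SE was obtained from the estimate and its F statistic. DESeq2 1.42.0 was an alternative to edgeR. The WT tumor of week 12 has no replicate and enters no contrast. Fits without a library kept the trended dispersion of the full fit, and a lone remaining sample was assumed to vary like the other groups. Annotation was GENCODE M21 (GRCm38), and promoters came from RefSeq, which held windows for 8 of the 9 genes. The fit was tested on simulated data. The rule was to name all 9 genes in every comparison. Values are given for all 9 in tumors against glands over weeks, and elsewhere for genes called or with an unadjusted p under 0.05 in some setting, with the rest counted only. Of other lists up to 4 called genes with the largest change are named, plus Tnfrsf11a, Tnfrsf11b, Esr2, Prlr, Areg and Wnt4, and others among called genes were chosen after their values were seen. Some genes that this rule names are not reported here. The genes and lists were chosen with earlier results of these data known.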

Additional observations from a re-analysis of the deposited data

Results flagged for a closer look

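Dixon's criterion was applied to each of the 9 genes in the 4 groups of tumors and glands by genotype, pooled over weeks. It flagged 9 values as standing apart from the other libraries of their group, among 36 groups tested at both ends. For normally distributed values chance flags about 1 in 20 groups, a rate that need not hold for these CPM values, which were not log-transformed. All 9 flagged values were the highest of their group. In KO tumors the library of week 12 replicate 2 was highest in Esr1 (12.2 CPM) and in Cited1 (0.422 CPM). In WT tumors, week 10 replicate 1 was highest in Esr1 (8.66 CPM), week 6 replicate 3 in Foxa1 (5.52 CPM) and week 10 replicate 3 in Ly6a (196 CPM). In KO glands, week 10 replicate 1 was highest in Pgr (82.5 CPM) and Cited1 (1.67 CPM), week 8 replicate 2 in Gata3 (106 CPM) and week 10 replicate 2 in Tnfsf11 (0.95 CPM). These groups pool 3 or 4 ages, and what sets these libraries apart was not tested.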

How the results depend on the processing

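The number of the 9 genes called in tumors against glands over weeks kept within 1.5 times its value under every alternative run, with 5 to 6 genes in WT and 3 to 6 in KO. In KO tumors at week 8 it went from 2 to 1 with the rRNA share as a covariate and without KO libraries above the rRNA range of WT (an alternative chosen after seeing the data, which leaves 1 gland and 1 tumor in KO weeks 8 and 12, assumed to vary like the other groups), with Pgr at -2.69 and -3.68 on the log2 scale, and to 4 with only the libraries of the groups compared. In KO tumors at week 10 it went from 3 to 6 without the filter on low counts and with DESeq2, and to 5 with only the groups compared. In KO tumors at week 12 it went from 3 to 1 without KO libraries above the rRNA range, with Pgr at -3.88 and Prom1 at 1.34 on the log2 scale, and to 0 with only the groups compared, a fit that called 0 of all genes. In WT against KO glands it went from 1 to 3 without the filter and with DESeq2, and to 0 with a fold change over 2, the rRNA covariate or only the groups compared. It went from 0 to 1 without the filter in WT tumors and in WT and KO glands by age, and in both gland comparisons with DESeq2. The cause was not tested. Leaving out a library gave 2 to 4 genes for WT mice of week 6, 2 to 6 for those of week 8, 2 to 5 for those of week 10, 0 to 1 for KO mice of week 8, 0 to 2 in WT against KO glands and 0 to 1 in KO glands by age. The log2 fold change then ran from -0.95 to 0.0789 for Ly6a in WT tumors over weeks, from -2.02 to 0.79 for Ly6a in WT at week 8, from -0.54 to 1.22 for Tnfsf11 in KO over weeks and from -3.52 to 0.80 for Cited1 in KO at week 10. DESeq2 size factors in edgeR, leaving out rRNA and mitochondrial genes, and leaving out the WT tumor of week 12 changed no call. Without KO libraries above the rRNA range, 4 comparisons lost a group and could not be fitted.

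Replicate numbers in the labels give no shared litter or batch. Deviations from the group means correlated between same-numbered libraries with a median r of 0.018, and 62 of 171 pairs were over 0.1, against 92 of 300 pairs with other numbers. The rule for pairing was not met, and the libraries were treated as sharing only a number. Of 32 libraries 19 correlated best with a library of their own number, a hint from the data for which no chance value was computed. With the replicate number as a block the number of genes called stayed within 1.5 times everywhere. Esr1 in KO tumors over weeks had an adjusted p of 0.133, and Tnfsf11 there had a log2 fold change of 0.0117 in place of -0.05.

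Counts were lowest for Tnfsf11, with 0 to 54 reads per library, and for Cited1 and Greb1 in tumors, with 3 to 46 reads, which limits the precision of their values. Single weeks rest on 2 glands each.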

Other observations

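The milk protein genes Wap, Lalba and Csn2 had few or no reads in most glands. Wap had 0 reads in all glands, which allows up to 3 reads in each, and 9 to 210 reads in WT tumors and 4 to 1310 in KO tumors. Lalba had 0 to 5 reads per gland, 18 to 2061 in WT tumors and 118 to 2700 in KO tumors. Csn2 ran from 0.0 to 0.102 CPM in WT glands, from 0.0271 to 1.60 in KO glands, from 0.0295 to 4.31 in WT tumors and from 0.577 to 49.9 in KO tumors.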
